A study of Mus musculus with 4 samples.

Results

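Differentiating muscle cells were looked for in single-cell RNA sequencing of mouse molar tooth organs, and 389 of 42164 kept cell barcodes met the rule for them. Barcodes were kept with at least 1000 UMIs (unique molecular identifiers, each marking 1 captured RNA molecule) and under 10% of UMIs from mitochondrial genes. Barcodes of the P1 mandibular library that also occurred in the P1 maxillary library were dropped. The members were selected on at least 10 UMIs summed over Myh3, Tnnt3, Acta1 and Ckm, from at least 2 of these genes, together with at least 1 UMI of Ttn. The levels of these 5 genes are therefore given as a description and carry no test, and the same holds for every contractile gene that moves with them.

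The 4 libraries came from wild-type animals labelled WTB6, without any transgene or treatment, with 1 library for each of the maxillary and mandibular molar at an embryonic stage (E15.5, written E15 in the sample labels) and at postnatal day 1 (P1). Each library pooled 6 tooth organs, so the spread between animals is unknown, and stages or jaws were not tested against each other. Total UMIs were 109723360 in the E15.5 maxillary library, 86659227 in the E15.5 mandibular, 128812956 in the P1 maxillary and 139873101 in the P1 mandibular. A tooth organ holds no skeletal muscle of its own, and neither the labels nor the methods name the muscle that the dissected pieces carried along.

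Skeletal muscle forms when dividing progenitors, marked by Pax7 and Myf5, leave the cell cycle under the control of the transcription factors Myod1 and Myog and fuse into fibres with the membrane proteins Mymk and Mymx. The young fibre then builds sarcomeres, the repeating units in which myosin thick filaments slide along actin thin filaments anchored at the Z-disc, with titin (Ttn) spanning between them. Embryonic and neonatal isoforms such as Myh3 and Myh8 come before the adult fast and slow ones, and the acetylcholine receptor at the nerve contact changes its fetal gamma subunit, Chrng, for the adult epsilon subunit, Chrne. Muscles of the jaw and face arise from pharyngeal mesoderm and are known for regulators such as Tbx1, Msc and Isl1.

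The sequences below are shown because they belong to genes that set the members apart from other cells without, except for Acta1, being used to choose them. Gm28653 is a long noncoding RNA at chr1:20669882-20684298 on the plus strand (build GRCm38), and the annotation places the hairpins of the muscle microRNAs miR-206 and miR-133b inside it. The mature forms, from RefSeq (GRCm38.p6), lie at chr1:20679055-20679076 and chr1:20682834-20682855 on the plus strand, and the capitals mark the seed, bases 2 to 8, which differs between them.
mmu-miR-206-3p: uGGAAUGUaaggaagugugugg
mmu-miR-133b-3p: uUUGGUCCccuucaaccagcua

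The 250 bases before the start of Myog, at chr1:134289754-134290003 on the plus strand, and of Acta1, at chr8:123894776-123895025 on the minus strand, follow from the same source. Capitals mark E-boxes (CANNTG, the motif bound by Myod1 and Myog) and, in Acta1, a CArG box, the motif of serum response factor. Both motifs read the same on either strand as patterns, and the matches shown do not overlap. In Myog the E-boxes start at -138 and -12 from the gene's start, and in Acta1 they start at -238 and -221, with the CArG box at -73 to -64.
Myog: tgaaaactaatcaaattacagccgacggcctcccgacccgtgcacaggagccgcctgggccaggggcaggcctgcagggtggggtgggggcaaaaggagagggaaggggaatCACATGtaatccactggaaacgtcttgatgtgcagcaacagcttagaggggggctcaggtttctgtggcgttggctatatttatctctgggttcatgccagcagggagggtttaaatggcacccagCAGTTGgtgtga
Acta1: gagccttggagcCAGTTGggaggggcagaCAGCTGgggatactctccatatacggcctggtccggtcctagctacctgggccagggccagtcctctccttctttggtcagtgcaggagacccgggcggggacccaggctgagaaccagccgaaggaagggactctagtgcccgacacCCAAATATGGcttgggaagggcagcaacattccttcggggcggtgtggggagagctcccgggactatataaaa

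Of 32851 RefSeq promoter windows of 300 bases (250 before and 50 after the start), 39.6% held at least 2 E-boxes and 1.63% held a CArG box. These matches describe letters in a window, and binding was not measured here.

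The members numbered 24 of 9679 kept barcodes (0.248%, 95% Clopper-Pearson interval 0.159 to 0.369) in the E15.5 maxillary library and 54 of 6582 (0.820%, 0.617 to 1.07) in the E15.5 mandibular. At P1 they numbered 69 of 16486 (0.419%, 0.326 to 0.529) in the maxillary library and 242 of 9417 (2.57%, 2.26 to 2.91) in the mandibular, which had 16014 kept barcodes before the shared ones were dropped. Both mandibular shares were above the maxillary share of the same stage beyond counting error. With the shared barcodes kept in both libraries the P1 mandibular share was 251 of 16014 (1.57%, 1.38 to 1.77), and with them left out of both the P1 maxillary share was 29 of 9563 (0.303%, 0.203 to 0.435). All intervals here and below cover counting error only and say nothing of differences between animals or dissections.

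The P1 libraries could not be treated as fully separate samples. They shared 7131 cell barcodes, 38.1% of the maxillary and 36.8% of the mandibular ones, while every other pair of libraries shared between 28 and 70. Of the 69 P1 maxillary members, 40 had their barcode in the P1 mandibular library too, and 39 of these 40 held more UMIs in the maxillary library (medians 4326.5 and 1122.5). Without the shared barcodes 29 P1 maxillary members remained, and many of the stage and jaw values below are also given without them.

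Depth was uneven as well. Members held a median of 18351 UMIs in the E15.5 maxillary library, 13256.5 in the E15.5 mandibular, 2566 in the P1 maxillary and 7868 in the P1 mandibular. The deepest barcode alone gave 17.5% of the member UMIs in the E15.5 maxillary library, 9.67% in the E15.5 mandibular, 12.7% in the P1 maxillary and 2.72% in the P1 mandibular.

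The members were then described with 49 sarcomere genes outside the rule. These move with the genes of the rule, so a high share was favoured by the choice of members and is no separate test of the label. Their share of a member's UMIs had a median of 2.86% in the E15.5 maxillary library, 2.83% in the E15.5 mandibular, 9.66% in the P1 maxillary and 1.53% in the P1 mandibular, against 0.0734% to 0.0978% in the other kept barcodes. Most members of the first 3 libraries held at least 1% of UMIs from these genes. In the P1 mandibular library 105 of 242 members had under 1% of UMIs from these genes. These 105 barcodes had a median of 14180 UMIs, a median of 1.20% of UMIs from the fibrillar collagen genes Col1a1, Col1a2 and Col3a1, Pdgfra in 81 and Myog in 11. Under 1% in the other libraries were 5 E15.5 maxillary, 8 E15.5 mandibular and 4 P1 maxillary members, with Pdgfra in 5, 6 and 2. Their median collagen shares were 0.850%, 0.893% and 0.228%, and Myog was at 26.3, 31.3 and 599 CPM. The data therefore go against the label for the 105 P1 mandibular barcodes and for most of the E15.5 barcodes under 1%, and these are called members by the rule only.

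A stricter set was added after these values had been seen. It keeps members with at least 1% of UMIs from the 49 sarcomere genes and under 0.5% from the 3 collagen genes, and is called sarcomere-rich members below. It held 19 of 24, 43 of 54, 64 of 69 and 117 of 242 members in the order E15.5 maxillary, E15.5 mandibular, P1 maxillary and P1 mandibular, an order kept for every series of 4 values below. These were 0.196%, 0.653%, 0.388% and 1.24% of the kept barcodes, and 0.787% in the P1 mandibular library with the shared barcodes kept. The sarcomere-rich members were shallower, with medians of 17952, 4629, 2368.5 and 1859 UMIs. The rule asks for 10 contractile UMIs at any depth, so a shallow barcode had to hold a larger share of contractile RNA to pass. Members with at least 5% sarcomere UMIs had medians of 14931, 1458, 2123.5 and 1583 UMIs, against 17952, 19671, 13132 and 9733 at 1% to 5%. The rule thus favours higher levels of contractile genes, and of genes that move with them, in shallower sets, and later thinning does not undo this. The main results are given for all members and for the sarcomere-rich set, and since its floor uses sarcomere genes, their levels in it are a description.

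**Figure D1:**
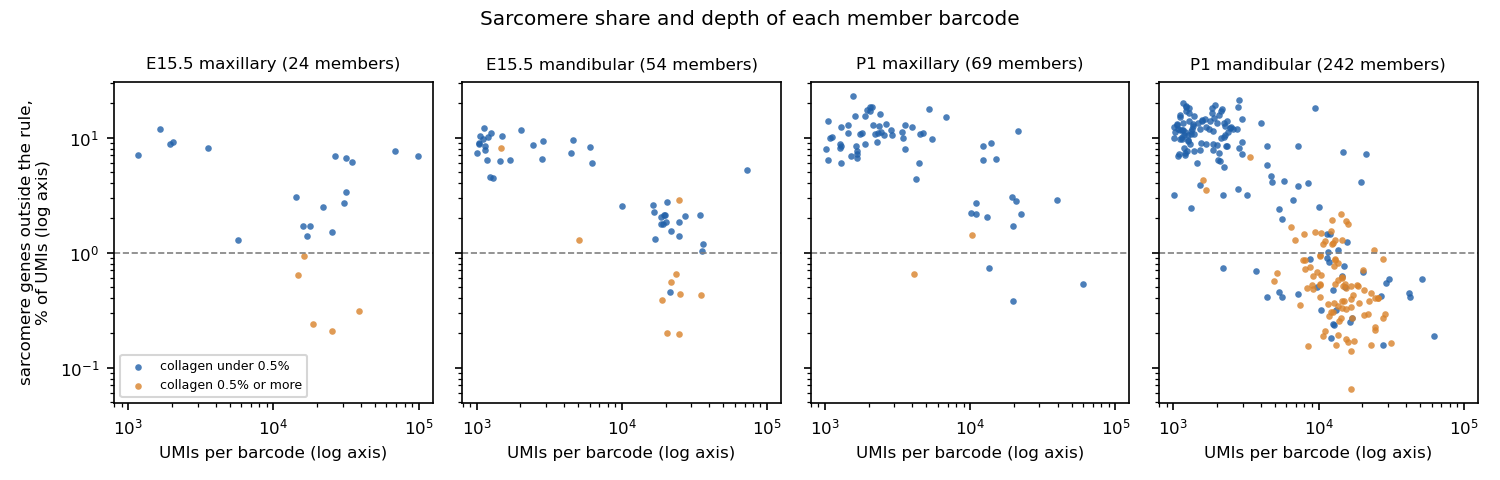
Each point is 1 of the 389 members, with its total UMIs (log axis) against the percentage of its UMIs from 49 sarcomere genes outside the rule (log axis), by library, and orange marks barcodes with 0.5% or more of UMIs from 3 collagen genes. The dashed line is at 1%, and 105 of 242 P1 mandibular members lie below it, most of them deep and orange, against 5, 8 and 4 in the other libraries.

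The threshold of the rule fell within a continuous range. Members with 10 to 14 contractile UMIs numbered 6, 15, 1 and 29, and barcodes just outside, with 5 to 9 and a Ttn UMI, numbered 17, 33, 11 and 56. A further 13, 34, 29 and 317 barcodes reached 10 contractile UMIs without a Ttn UMI. In the P1 mandibular library 112 of the 242 members passed with exactly 1 Ttn UMI. Acta1 RNA was also found in cells that should lack it, since macrophage-like barcodes (at least 3 UMIs of C1qa, C1qb and C1qc) held Acta1 at 23.8, 17.1, 17.6 and 99.5 CPM (UMIs per 1000000 summed UMIs). Of the macrophage-like barcodes 8.19%, 17.8%, 4.60% and 50% had an Acta1 UMI. The share of such free RNA in the P1 mandibular members was not tested.

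Among the genes of the rule, Acta1, the skeletal alpha actin, was at 3447, 1461, 7998 and 4526 CPM in the members and at 4185, 1724, 10159 and 19417 CPM in the sarcomere-rich members. Ttn was at 6240, 2368, 4358 and 751 CPM in the members. Myh3, the embryonic myosin heavy chain, was at 2431, 464, 1808 and 110 CPM in the members, and in the sarcomere-rich members at 2972, 636, 2286 and 581 CPM. Both mandibular libraries therefore held less Myh3 than the maxillary library of the same stage in either set. In the E15.5 maxillary library 420 of 1373 Myh3 UMIs came from 1 barcode. Ckm, the muscle creatine kinase, was at 287, 340, 1538 and 1036 CPM, and Tnnt3, the fast troponin T, at 1145, 794, 3431 and 1532 CPM.

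Outside the rule and the gene lists, 15 genes that stood high above the other kept barcodes were picked after their values were seen, and they are given as a description. Smpx, a small muscle protein, was at 166, 74.9, 285 and 87.9 CPM against 2.0, 2.96, 0.917 and 2.66 CPM in the other kept barcodes. Itgb1bp2, the muscle integrin-binding protein melusin, was at 244, 84.2, 393 and 114 CPM against 1.79, 2.13, 2.06 and 4.48 CPM. Apobec2, a muscle member of the deaminase family, was at 145, 76.2, 219 and 85.3 CPM against 1.64, 2.09, 0.989 and 2.94 CPM. The other 12 genes were Tceal7, Hspb2, Gm28653, Cryab, Gatm, Dpp6, Gamt, Nexn, Fndc5, Zdbf2, Flnc and Cfl2, which include the small heat shock proteins Hspb2 and Cryab and the creatine synthesis enzymes Gatm and Gamt.

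Gm28653, whose locus holds the hairpins of both microRNAs printed above, was at 448, 346, 272 and 55.1 CPM in the members and at 561, 492, 336 and 262 CPM in the sarcomere-rich members. It had a UMI in 14, 22, 15 and 25 members, and was at 10.2, 28.1, 1.95 and 5.64 CPM in the other kept barcodes. Mature microRNAs were not measured by this assay.

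Against myogenic progenitors (214, 382, 65 and 146 barcodes, chosen by pairs of Pax7, Myf5 and Myod1), the members held less Pax7 and Myf5 and more of several genes of differentiation. Both sets were chosen by their own genes, so these values are a description. Pax7 was at 1.77, 6.68, 2.12 and 6.12 CPM in the members and at 134, 160, 176 and 160 CPM in the progenitors, and Myf5 at 7.08, 0, 12.7 and 5.25 CPM against 84.9, 84.5, 123 and 135 CPM. Myod1 was at 161, 120, 87.1 and 7.87 CPM against 141, 109, 137 and 129 CPM, so that it was at least 2-fold lower than in the progenitors in the P1 mandibular members but not in the other 3 libraries. Myog was at 1767, 1805, 831 and 168 CPM in the members against 262, 148, 90.4 and 52.0 CPM. Mef2c, a transcription factor that acts with the myogenic regulators, differed by a log2 ratio of 4.50, 4.18, 4.85 and 3.97 over the progenitors. The fusion gene Mymk differed by 4.03, 4.57, 4.43 and 3.10 on the log2 scale, and Cdkn1a, an inhibitor of the cell cycle, by 4.73, 4.80, 2.09 and 1.99. Mrln, which encodes a micropeptide that restrains the calcium pump, was no higher in the members, at 124, 158, 82.9 and 53.8 CPM against 148, 178, 112 and 190 CPM.

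Cell cycle genes were low in the sarcomere-rich members. Top2a, used in chromosome separation, was at 8.87, 15.2, 5.50 and 18.9 CPM there, at 46.0, 144, 102 and 100.6 CPM in all members and at 444, 415, 309 and 249 CPM in the progenitors. After thinning each barcode to 2000 UMIs, Mki67 had a UMI in 0 of 16, 0 of 27, 0 of 40 and 1 of 52 sarcomere-rich members (upper 95% bounds 20.6%, 12.8%, 8.81% and 10.3%), and in 26.2%, 27.2%, 32.3% and 18.6% of the progenitors. Without thinning it had a UMI in 4 of 19, 1 of 43, 2 of 64 and 6 of 117 sarcomere-rich members.

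To ask what differed between the embryonic and the newborn muscle cells, UMIs were summed over the members of each library and P1 was set against E15.5 within each jaw. A gene was said to rise or fall, or to be higher or lower by the size rule, when the ratio of CPM values was at least 2-fold, with at least 50 CPM and 20 UMIs in the higher library. Genes that reached those minimums were counted as tested, a matter of size and not of a statistical test. The 2 jaws share no library, and with 1 library a group a difference between libraries and a difference between stages cannot be told apart.

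In the maxillary molar, genes of energy metabolism and of fast fibres had medians above 1 on the log2 scale in both sets of cells, and kept them without the shared barcodes. The P1 members were shallower than the E15.5 members in both sets, and the part of the rule's fixed minimum in these medians was not tested. Of 3547 genes tested in the members, 7.64% rose and 6.74% fell, with a median log2 ratio of -0.04. Of 11 tested genes of energy metabolism outside the rule (15 on the list), 6 rose and 1, Phka1, fell, with a median of 1.10. Of 6 tested fast fibre genes, 4 rose and none fell, with a median of 1.08. The thin filament list had 4 of 14 tested genes that rose and a median of -0.22, and the Z-disc list had 6 of 15 that rose, 1 that fell, and a median of 0.40. Slow fibre genes had 1 of 7, Mybpc1, that rose, and a median of -0.12. Of the lists with 4 tested genes each, the head muscle regulators (Tbx1 and Msc), the cell cycle genes (Top2a and Cdk1) and the inhibitors of differentiation (Id3 and Msc) each had 2 that rose and none that fell, with medians of 1.53, 0.93 and 0.77. Without the deepest barcode of each library these medians were 0.18, -1.40 and 0.41. Leaving out the shared barcodes left 0, 1 and 1 tested genes, with a ratio of -0.76 for the cell cycle gene and -1.47 for the inhibitor of differentiation. The lists overlap, so a gene such as Tnni2 counts in the thin filament and the fast fibre list.

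The sarcomere-rich members gave like counts in the maxillary molar. Of 3274 genes tested there, 9.99% rose and 5.53% fell. Of the tested genes of energy metabolism 7 of 11 rose and 1 fell (median 1.20), and of the fast fibre genes 4 of 6 rose (median 1.13). Over all members without the barcodes shared with the P1 mandibular library, the median of all genes moved to -0.58, those of energy metabolism and fast fibre genes both to 1.68, and those of thin filament, slow fibre, Z-disc and thick filament genes to 0.98, 1.09, 1.19 and 1.23. Over the sarcomere-rich members without them, the median of all genes was -0.50, and those of the same 6 lists were 1.40, 1.39, 0.67, 0.79, 0.91 and 0.91. The medians of thin filament and slow fibre genes thus changed sign in both sets. Of immediate early and heat shock genes, known to rise in dissociation, 2 of 7, Fosb and Hspa1a, rose in the members, with a median of 0.80 that went to -2.23 without the shared barcodes. Their part in the result was not tested.

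In the mandibular molar the direction of several lists depended on the set of cells. Over all members, of 3908 genes tested 17.1% rose and 8.8% fell, and 6 of 11 tested thin filament genes fell (median -1.54), as did 5 of 6 tested genes of the neuromuscular junction (median -2.86) and 4 of 5 tested myogenic transcription factors (median -1.64). Over sarcomere-rich members, of 3112 genes tested 10.9% rose and 19.1% fell, with a median of all genes of -0.36. There 6 of 14 tested thin filament genes rose and none fell (median 0.85), and 6 of 9 thick filament genes (median 1.64), 10 of 15 Z-disc genes (median 2.69), 9 of 17 calcium handling genes (median 1.27), 9 of 11 genes of energy metabolism (median 1.96) and 8 of 8 fast fibre genes (median 2.77) rose. The P1 set was shallower than the E15.5 set (medians of 1859 and 4629 UMIs), and the part of the rule's fixed minimum in these rises was not tested. Neuromuscular junction genes had 5 of 9 that fell and 1, Colq, that rose (median -1.03). Myogenic transcription factors had 2 of 7 that rose and 3 that fell, and their median changed sign to 0.14. Fusion genes had 3 of 6 that fell and 1, Jam2, that rose (median -1.18), against 4 of 9 that fell and 3 that rose over all members (median 0.25). The medians of thick filament, Z-disc, calcium handling and slow fibre genes over all members were -0.47, -0.29, -0.64 and -0.88, and that of 2 micropeptides of the calcium pump -0.41. In the sarcomere-rich members those of slow fibre genes and of the micropeptides were 0.71 and 1.36, so that all 5 changed sign, while those of fast fibre genes and energy metabolism, 0.73 and 0.15, had the same sign in both sets. Of the immediate early and heat shock genes 4 of 8, Fos, Fosb, Jun and Atf3, rose over all members (median 0.87), and 1 of 6, Hspa1a, fell over the sarcomere-rich members (median -0.53). Their part in the result was not tested.

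Marker genes of mesenchyme moved with the difference between the sets. Summed over Col1a1, Col1a2, Col3a1, Pdgfra, Lum and Dcn they were at 3140, 4040, 1443 and 12466 CPM in all members, with Col1a1 the most abundant in the P1 mandibular library at 3652 CPM and none of the 6 at 0 in any library. In the sarcomere-rich members, which were chosen to be low in 3 of these genes, the sum was 592, 482, 812 and 522 CPM. Haemoglobin genes and Alas2 summed to 11979, 582, 168 and 10749 CPM in the members and to 41030 CPM in the P1 mandibular sarcomere-rich members. Their levels come in part from 1 E15.5 maxillary and 7 P1 mandibular members with over 20% haemoglobin UMIs, and leaving these out changed no count of genes by more than 1.5 times.

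Genes were then ranked by the smaller of their ratios in the 2 jaws, among those at least 2-fold above the other kept barcodes in the library where they were higher. Tcap, which caps titin at the Z-disc, came at the top of those that rose. It was at 8.85, 8.02, 113 and 116 CPM in the members and at 11.1, 9.53, 143 and 538 CPM in the sarcomere-rich members. Both P1 libraries were thus above both E15.5 libraries. Over all members its log2 ratio was 3.67 (95% interval 2.36 to 5.35) in the maxillary and 3.86 (2.72 to 5.32) in the mandibular molar, and without the shared barcodes the maxillary value was 4.15.

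Fabp3, which carries fatty acids, was at 30.1, 22.7, 157 and 162 CPM in the members, a log2 ratio of 2.39 (1.61 to 3.24) and 2.83 (2.13 to 3.63). Myoz1, a Z-disc protein of fast fibres, was at 7.08, 34.8, 102 and 153 CPM, a log2 ratio of 3.85 (2.40 to 5.78) and 2.14 (1.56 to 2.77). Fhl1, a LIM domain protein of muscle, was at 62.0, 40.1, 489 and 133 CPM, a log2 ratio of 2.98 and 1.72. All 3 were higher at P1 in each jaw and set, at 692, 641 and 571 CPM in the P1 mandibular sarcomere-rich members. Fxyd1, a regulator of the sodium pump, rose by 3.04 and 2.77 on the log2 scale, the mitochondrial protein Chchd10 by 3.74 and 2.18, Mlf1 by 2.21 and 1.52, and Tceal7 by 1.64 and 1.36. Ckm rose by 2.42 and 1.61, but the rule used its counts. Without the shared barcodes these maxillary ratios, from Fabp3 to Ckm, lay between 2.34 and 3.68.

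The rule for named genes also gave Adarb2, at 12.4, 10.7, 125 and 73.5 CPM, but 84.7% of its P1 maxillary UMIs came from 1 barcode, and it was at 0 in the sarcomere-rich members of 3 libraries. Its maxillary log2 ratio went from 3.34 to 1.34 without the shared barcodes. Without the condition on muscle the largest rises were in Plppr1, Car2, Dlx6os1, Smpd3 and Unc5c. Plppr1 was at 0, 0, 142 and 157 CPM in the members and at 34.7, 22.9, 514 and 426 CPM in the other kept barcodes, above the members in every library. The same held for Car2, Dlx6os1 and Smpd3, and for Unc5c, at 300 CPM against 309 CPM in the P1 maxillary library. The maxillary ratios of Unc5c and Dlx6os1 were 3.82 and 4.05, and 0.56 and 1.82 without the shared barcodes.

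Of the other list genes, 7 that rose in the sarcomere-rich members of both jaws are given here, from several lists and picked after their values were seen. Myf6, the myogenic regulator of late differentiation, was at 19.96, 3.81, 99.04 and 94.7 CPM, a log2 ratio of 2.31 (1.23 to 3.55) and 4.63 (2.67 to 7.74). Colq, which anchors acetylcholinesterase at the nerve contact, was at 15.53, 1.91, 82.5 and 133 CPM, a log2 ratio of 2.41 (1.19 to 3.84) and 6.12 (3.57 to 11.5). Cox8b and Eno3, muscle forms of a respiratory subunit and of enolase, rose by 2.44 and 2.27 and by 1.87 and 2.19. The fast proteins Myl1, Tnnc2 and Tnni2 rose by 1.15, 1.32 and 1.10 in the maxillary and by 2.81, 2.66 and 2.74 in the mandibular molar. In all members the mandibular ratios of these 3 genes were 0.94, 0.69 and 0.77, under 2-fold. Because sarcomere genes set the floor of the sarcomere-rich set, the larger values there are a description. In the sarcomere-rich members without the shared barcodes the maxillary ratio was 2.87 for Myf6, between 1.33 and 2.26 for Cox8b, Eno3 and the 3 fast proteins, and 1.75 (-0.25 to 3.62, 5 P1 UMIs) for Colq.

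**Figure D2:**
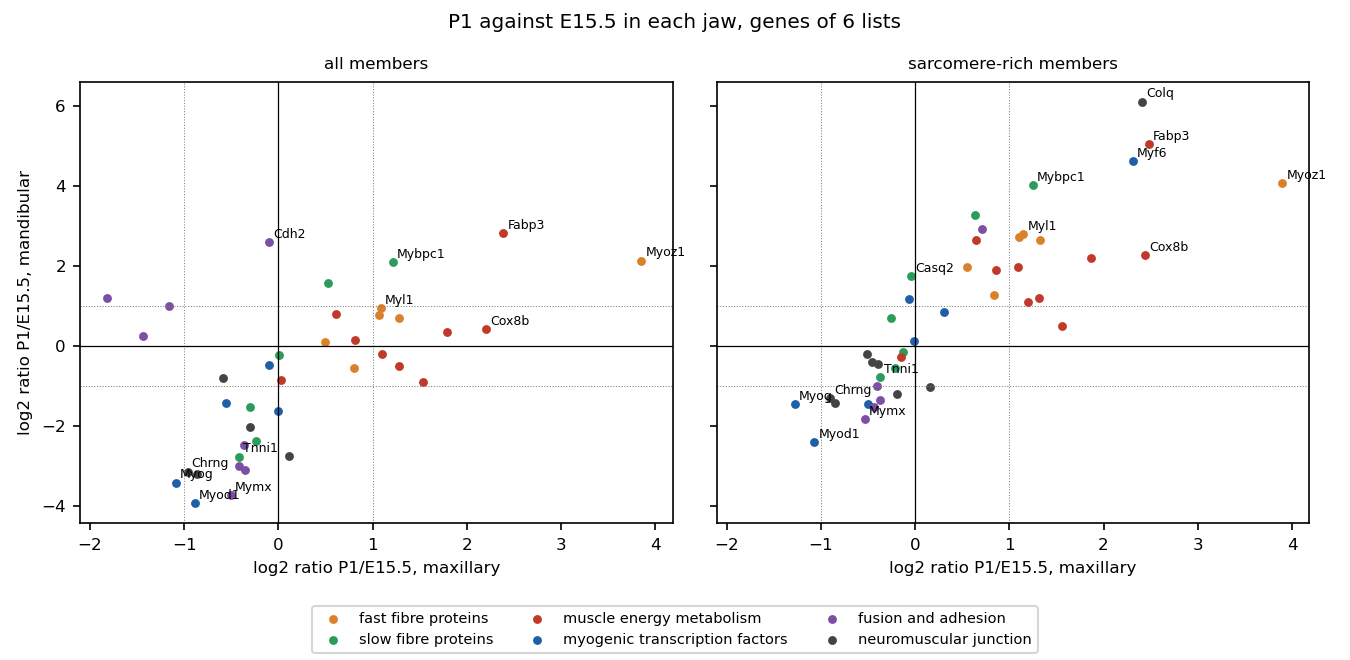
Each point is a gene of 6 lists that reached the minimums in both jaws, outside the rule, with its log2 ratio of P1 over E15.5 in the maxillary (x axis) and the mandibular molar (y axis), for all members (left) and sarcomere-rich members (right), and dotted lines mark 2-fold. On the right all plotted fast fibre genes lie above 0 on both axes, while Myog, Myod1, Chrng and Mymx lie below 0 on both.

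Myog and Cdkn1c fell in both jaws and in both sets of cells, but in the maxillary molar the fall was under 2-fold without the shared barcodes. Myog was at 1767, 1805, 831 and 168 CPM in the members and at 2207, 2539, 913 and 922 CPM in the sarcomere-rich members. It fell by 1.27 and 1.46 on the log2 scale in the latter, and the P1 values of both jaws lay below both E15.5 values. Without the shared barcodes Myog was at 1306 CPM in the P1 maxillary library, a ratio of -0.44 (-0.72 to -0.17) over the members and of -0.76 (-1.04 to -0.49) over the sarcomere-rich members, where the medians of all genes were -0.58 and -0.50. Cdkn1c, a cell cycle inhibitor, was at 9285, 10896, 4555 and 2425 CPM in the members and fell by 1.03 and 2.17, and without the shared barcodes its maxillary ratio was -0.50. Mymx, the small fusion protein, was at 574, 1082, 396 and 306 CPM in the sarcomere-rich members, with a ratio under 2-fold in the maxillary molar (-0.54, log2) and a fall in the mandibular (-1.82).

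Chrng, the fetal receptor subunit, was at 195, 107, 105 and 43.3 CPM in the sarcomere-rich members, a log2 ratio of -0.90 and -1.30. Chrne, the adult subunit, had no UMI in any of the 389 members. The adult subunit was thus not detectable at this depth, where a count of 0 allows up to 3 UMIs.

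By the same ranking, Ccnb1ip1 and Chrm3 came at the top of the genes that fell. Chrm3, a muscarinic acetylcholine receptor, was at 409, 186, 74.4 and 3.50 CPM in the members, a log2 ratio of -2.46 (-3.02 to -1.94) and -5.73 (-6.97 to -4.71). It had a UMI in 14, 17, 7 and 2 members, and in the sarcomere-rich members was at 510, 265, 93.5 and 18.9 CPM. Ccnb1ip1, a ubiquitin ligase known from meiosis, was at 150, 89.6, 23.4 and 5.69 CPM, a log2 ratio of -2.69 (-3.74 to -1.77) and -3.98 (-4.96 to -3.11). Without the shared barcodes the maxillary ratios were -1.12 and -1.04, while the median of all genes was -0.58.

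Lower at P1 in the same way were Cnr1, a cannabinoid receptor (-2.15 and -3.14), Isyna1, the enzyme of inositol synthesis (-2.02 and -2.94), Frmpd1 (-1.52 and -2.96), Tmem178b (-1.50 and -3.60), Wrnip1 (-1.44 and -2.30), Dync1i1, a dynein subunit (-1.40 and -2.96), Hspa4l, a chaperone (-1.39 and -2.03), and Fdft1, the squalene synthase (-1.25 and -1.53), all as log2 ratios over the members. Igf2bp1, an RNA-binding protein of embryonic tissues, was named without the condition on muscle (-1.87 and -1.58). In the sarcomere-rich members these 9 ratios lay between -2.82 and -1.15 in the maxillary molar and between -2.66 and -0.64 in the mandibular, where the median of all genes was -0.36. Without the shared barcodes the maxillary ratio of Hspa4l was 0.01 and the other 8 lay between -3.63 and -0.85.

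Of 10 growth and imprinted genes tested in the maxillary sarcomere-rich members 2 rose and 1 fell, where 9.99% of all genes rose and 5.53% fell. Of 9 tested in the mandibular 2 rose and 2 fell, where 10.9% of all genes rose and 19.1% fell, so the falls were near the background. H19, a noncoding RNA of fetal tissues, was at 1508, 1071, 2814 and 6526 CPM in the sarcomere-rich members, a ratio of 0.90 (log2), under 2-fold, in the maxillary molar (1.22 without the shared barcodes) and of 2.61 in the mandibular. Igf2, its imprinted neighbour, rose by 1.48 and 1.67 there, and by 0.93 and 0.97, under 2-fold, over all members. Id3, an inhibitor of myogenic factors, rose in both sets and jaws, by 1.07 and 2.39 over all members and by 1.90 and 1.24 over the sarcomere-rich members. Its maxillary ratios were 0.19 (-0.89 to 1.13) and 1.37 (0.16 to 2.50) without the shared barcodes. Dlk1 and Meg3 stayed under 2-fold in both jaws and sets.

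**Figure D3:**
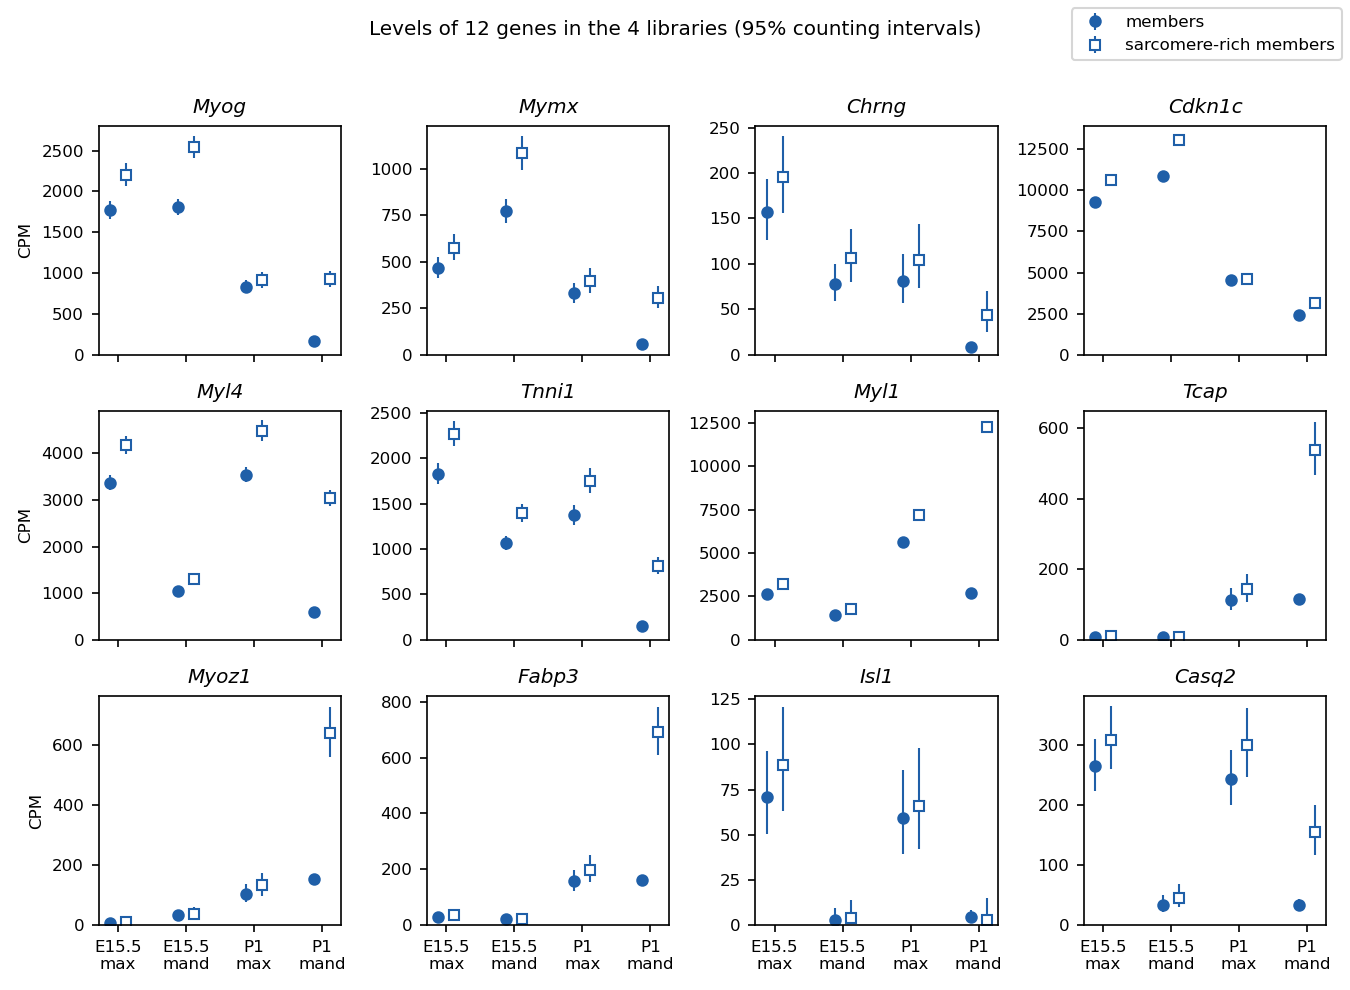
Levels of 12 genes in CPM (y axis, from 0) in each library (x axis), filled for all members and open for sarcomere-rich members, with bars for 95% exact Poisson intervals of counting error. Tcap, Myoz1 and Fabp3 were higher in both P1 libraries, Myog and Cdkn1c were lower, and Isl1 was low in both mandibular libraries.

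The share of cells with a Myog UMI was then compared at equal depth. Each set was thinned to 2000 UMIs in a single random draw of its own. Myog was then found in 15 of 16 sarcomere-rich members (93.8%, 69.8 to 99.8) of the E15.5 maxillary library and in 26 of 27 (96.3%, 81.0 to 99.9) of the E15.5 mandibular. At P1 it was found in 20 of 40 (50%, 33.8 to 66.2) in the maxillary and in 19 of 52 (36.5%, 23.6 to 51.0) in the mandibular library. Left out as shallower were 3, 16, 24 and 65 sarcomere-rich members, and without thinning the shares were 100%, 81.4%, 59.4% and 27.4%. Macrophage-like barcodes, which should lack Myog and had medians of 11308, 15003, 3740.5 and 11772.5 UMIs, held it in 0.769%, 2.38%, 0.714% and 0 of 181 (upper bound 2.02%) after thinning. Over all members, thinned in a separate random draw, the shares were 61.9% (38.4 to 81.9), 70.3% (53.0 to 84.1), 53.3% (37.9 to 68.3) and 13.7% (8.99 to 19.7). Because the draws differ, counts of the sarcomere-rich members are not a part of those of all members. The shares expected from thinning were 86.7%, 93.6%, 54.4% and 37.1% in the sarcomere-rich members. Over all members they were 67.4%, 71.0%, 51.3% and 13.0%. In the mandibular molar the P1 share was thus below the E15.5 share beyond counting error in both sets, while in the maxillary molar the intervals overlapped over all members. Of the 175 thinned P1 mandibular members only 52 were sarcomere-rich. The P1 mandibular share over all members therefore mixes in barcodes under 1% sarcomere UMIs, which held Myog at 22.4 CPM and go against the muscle label. Only 6 of the 29 P1 maxillary members outside the shared barcodes reached 2000 UMIs, and 5 of these had Myog (83.3%, 35.9 to 99.6), too few to place the share above or below that at E15.5.

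Within the P1 maxillary library the 20 thinned sarcomere-rich members with a Myog UMI were set beside the 20 without one, a range within the population and not a cell type. The genes given here were picked after their values were seen, and the share of all genes that differed was not counted. Those with Myog held more Tnnc1, the slow and cardiac troponin C, at 2150 against 825 CPM, a log2 ratio of 1.38 (0.79 to 2.01), and more Acta2, a smooth muscle actin that early muscle also expresses, at 1725 against 600 CPM, a ratio of 1.52 (0.83 to 2.26). Those without Myog held more Atp2a1, the fast calcium pump, at 725 against 125 CPM, a ratio of -2.54 (-4.26 to -1.15), more Dmd, the dystrophin gene, at 1100 against 425 CPM, and more Cox6a2, a muscle respiratory subunit, at 1350 against 550 CPM. In the other libraries fewer than 20 barcodes stood on 1 side, and no such comparison was made, nor could it be made without the shared barcodes.

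To ask whether the muscle cells of the jaws differed, the mandibular members were set against the maxillary members of the same stage. At E15.5, 2.89% of 3429 genes tested were higher and 6.39% lower in the mandibular members, and the contractile and membrane lists held genes on the lower side only. Lower were 6 of 9 tested thick filament genes (median -1.51), 7 of 12 of the dystrophin complex and membrane (median -1.76), 4 of 7 slow fibre genes (median -1.66), 6 of 12 Z-disc genes (median -1.01) and 5 of 14 calcium handling genes (median -0.74). In the sarcomere-rich members 4.42% of 3193 genes were higher and 9.55% lower, and the same counts were 6 of 9, 7 of 13, 4 of 7, 6 of 12 and 5 of 15. As a mean over cells that gives each cell the same weight, the medians of the thick filament, Z-disc and calcium handling lists were 0.12, 0.20 and 0.30, and those of the slow fibre and dystrophin lists -0.25 and -0.71. Without the deepest barcode of each library, those of the thick filament, Z-disc, calcium handling, slow fibre and dystrophin lists were -1.45, -1.20, -0.65, -1.68 and -1.99. After thinning, that of the dystrophin list was -2.40, and those of the thick filament, Z-disc and slow fibre lists were -0.24, -0.51 and -0.26. The E15.5 mandibular members with at least 5% sarcomere UMIs had a median of 1458 UMIs, against 14931 in the maxillary library.

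At P1 the 2 sets of cells differed as well. Over all members 16.8% of 3942 genes were higher and 11.0% lower in the mandibular molar, and lower were 12 of 14 thin filament, 12 of 14 Z-disc, 14 of 16 calcium handling and 8 of 9 thick filament genes. Over sarcomere-rich members 4.51% of 3060 genes were higher and 16.4% lower, and lower were 1 of 14, 2 of 15, 1 of 18 and 0 of 9 genes of the same lists. The medians of all genes were 0.09 and -0.29. Among the sarcomere-rich members higher in the mandibular molar were Tcap (1.91), Myoz1 (2.28), Actn3, the fast alpha-actinin (1.87), Casq1, the fast calsequestrin (1.37), and Sln, a micropeptide that restrains the calcium pump (1.42), as log2 ratios. These were 1.78, 2.94, 0.43, 0.27 and 1.33 without the shared barcodes, with a median of all genes of 0.37, so Actn3 and Casq1 were under 2-fold. The median of the immediate early and heat shock genes was 0.63 over all members, -0.76 over the sarcomere-rich members, and 2.93 and 2.41 in these sets without the shared barcodes. Their part in the result was not tested.

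5 genes enriched in muscle were lower in the mandibular members at both stages by the rule for named genes, and Isl1 led their ranking. Isl1, a homeodomain factor of pharyngeal mesoderm, was at 70.8, 2.67, 59.5 and 4.37 CPM in the members, with both maxillary libraries above both mandibular ones. It had a UMI in 9, 1, 17 and 3 members. The log2 ratio was -4.73 (-7.82 to -2.78) at E15.5 and -3.77 (-4.97 to -2.68) at P1, and in the sarcomere-rich members it was -4.54 (-7.64 to -2.59) and -4.61 (-9.97 to -1.99). The progenitors, a set of other barcodes, held Isl1 at 55.2, 7.03, 80.6 and 7.09 CPM.

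Barx2, a homeobox factor of myoblasts, was at 70.8, 6.68, 61.6 and 6.12 CPM, a log2 ratio of -3.40 (-5.10 to -2.06) and -3.33 (-4.37 to -2.36). Col25a1, a membrane collagen needed for the entry of motor nerves, was at 586, 65.5, 580 and 58.2 CPM, a ratio of -3.16 (-3.62 to -2.72) and -3.32 (-3.63 to -3.01). Both maxillary libraries were above both mandibular ones for each gene. In the E15.5 mandibular library 80.0% of Barx2 UMIs and 75.5% of Col25a1 UMIs came from 1 barcode, and without the deepest barcode of each library the E15.5 ratio of Col25a1 was -5.23. In the other kept barcodes Col25a1 was also higher in the maxillary libraries, at 107, 39.3, 220 and 97.5 CPM.

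Casq2, the slow and cardiac calsequestrin that stores calcium, was at 264, 33.4, 242 and 34.1 CPM, a log2 ratio of -2.98 (-3.65 to -2.36) and -2.83 (-3.26 to -2.40). Dcx, a microtubule-binding protein, was at 81.4, 9.36, 110 and 15.7 CPM, a ratio of -3.12 (-4.51 to -1.96) and -2.81 (-3.47 to -2.17). In the sarcomere-rich members the P1 ratios of these 2 genes were -0.96 and -0.97, under 2-fold, while those of Barx2 and Col25a1 were -4.78 (-10.1 to -2.18) and -2.47. Without the shared P1 barcodes the P1 ratios of the 5 genes lay between -4.94 and -3.25, against a median of all genes of 0.91.

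Of the head muscle regulators, Tbx1 was at 11.1, 7.62, 60.5 and 21.6 CPM in the sarcomere-rich members, a log2 ratio of the mandibular over the maxillary molar of -0.54 (-2.87 to 1.67) at E15.5 and -1.48 (-2.86 to -0.26) at P1. Msc was at 8.87, 22.9, 11.0 and 37.9 CPM there, a ratio of 1.37 (-0.36 to 3.45) and 1.78 (0.11 to 3.84). At E15.5 both intervals held 0, and without the shared barcodes Msc had no UMI in the P1 maxillary members. Over all members the P1 ratio of Tbx1 was -1.75 and that of Msc had the other sign, -2.23. The epithelial genes Krt14 and Krt5 were at 129, 0, 66.0 and 32.5 CPM and at 104, 1.91, 16.5 and 32.5 CPM in the sarcomere-rich members, and their part in the Tbx1 and Msc values was not tested. Of 3 regulators known from trunk and limb muscle, Pax3 had no UMI in any member, Lbx1 had 0, 0, 2 and 1, and Meox1 had 1, 4, 1 and 27, with 0, 0, 1 and 0 of the Meox1 UMIs in sarcomere-rich members.

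By the same ranking 3 genes had ratios above 0 at both stages, of which 1, Eya2, was at least 2-fold at both. Eya2, a cofactor of homeobox factors, was at 28.3, 70.9, 23.4 and 55.5 CPM, a log2 ratio of 1.32 (0.49 to 2.23) and 1.25 (0.36 to 2.29), but 63.6% of its P1 maxillary UMIs came from 1 barcode and the P1 ratio was -0.35 in the sarcomere-rich members. Tppp3, a tubulin-binding protein, had ratios of 0.70 and 0.73, and Slc29a1, a nucleoside transporter, of 1.02 and 0.22. Neither kept its sign, since Tppp3 was at -0.30 at E15.5 in the sarcomere-rich members and at -0.39 at P1 without the shared barcodes, and Slc29a1 at -0.47 at P1 in the sarcomere-rich members.

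**Figure D4:**
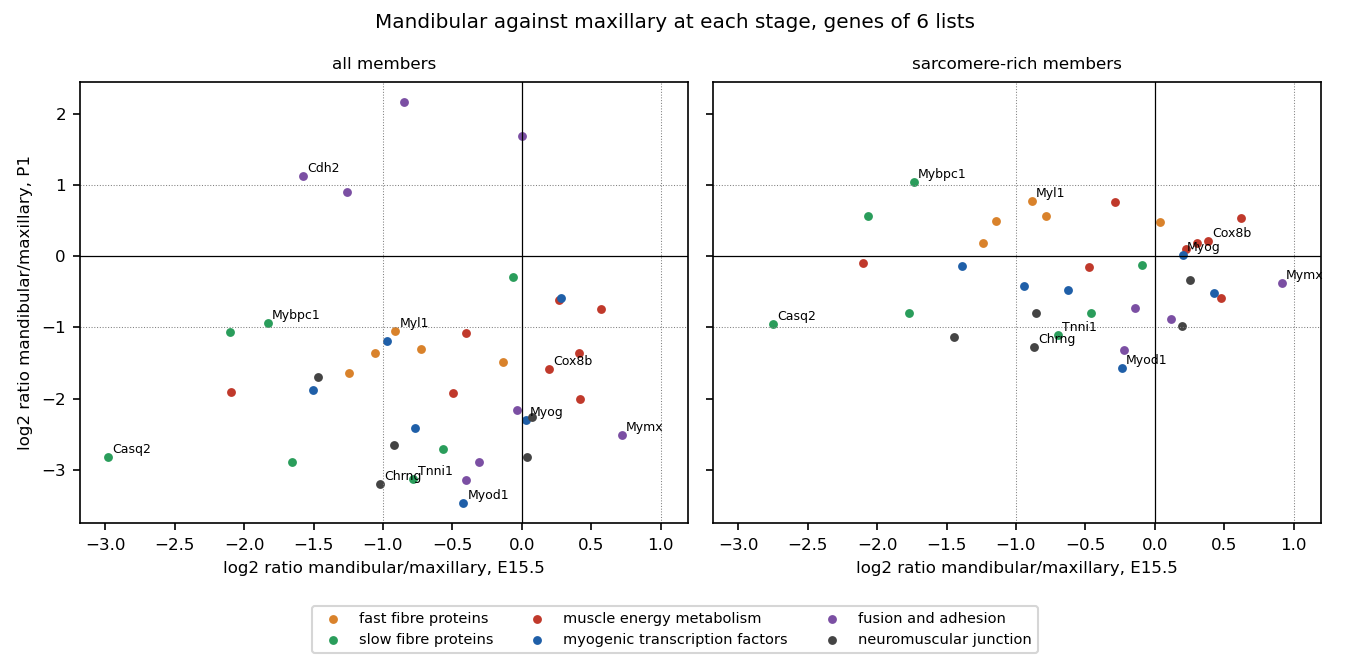
Each point is a gene of 6 lists that reached the minimums at both stages, outside the rule, with its log2 ratio of the mandibular over the maxillary molar at E15.5 (x axis) and at P1 (y axis), for all members (left) and sarcomere-rich members (right), and dotted lines mark 2-fold. Of the plotted genes Casq2 lies farthest to the left in both panels, and Myod1 lies at -3.47 on the P1 axis on the left and at -1.57 on the right.

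Markers of other cell types were also summed in the sarcomere-rich members. Haemoglobin genes and Alas2 were at 14918, 625, 204 and 41030 CPM. The 6 mesenchyme genes were at the 482 to 812 CPM given above, and 5 epithelial genes at 401, 1.91, 113 and 103 CPM. Summed over 6 genes, markers of pericytes and smooth muscle were at 2207, 1469, 1840 and 971 CPM, nearly all from Acta2 (2169, 1436, 1728 and 911 CPM), while Rgs5 was at 2.22, 1.91, 0 and 5.41 CPM. Markers of macrophages were at 4.44, 3.81, 0 and 311 CPM, with Tyrobp the most abundant in the P1 mandibular library at 114 CPM. Amelx, an enamel protein gene of ameloblasts, was at 0, 1.91, 46.8 and 254 CPM in these members and at 775 CPM over all P1 mandibular members. Markers of endothelium were at 2.22, 13.3, 2.75 and 5.41 CPM, of bone and odontoblasts at 0, 7.62, 60.5 and 24.3 CPM, of glia at 26.6, 13.3, 27.5 and 10.8 CPM, and of tendon and cartilage at 22.2, 70.5, 41.3 and 83.8 CPM. Their part in the results was not tested.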

How the data were processed

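The 4 libraries were made from TrypLE-dissociated molar tooth organs (6 pooled for each) with the Chromium 3' v3.1 chemistry. The deposited files hold raw UMI counts for each gene and barcode, which the authors made with Cell Ranger (version 7.0.1 per the file headers) on its mm10 reference. They hold 10885, 7947, 18707 and 19401 barcodes in the order E15.5 maxillary, E15.5 mandibular, P1 maxillary and P1 mandibular. No cell annotation was used.

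Members, list genes and the lists (19 of muscle and general genes and 10 of other cell types) were chosen with earlier results of these data known. UMIs were summed over the cells of a set in each library and scaled to CPM. With 1 library a group, ratios carry exact conditional intervals and levels exact Poisson intervals, at 95%, for counting error only. Genes were tested with at least 50 CPM and 20 UMIs in the higher library. Any gene of the lists could be named with its list, and further genes were named from a ranking of all genes, list genes included, by the smaller absolute log2 ratio of the 2 jaws (or stages), with the same direction in both and at least 2-fold above the other kept barcodes in the higher library, 10 each way for stages and 5 for jaws, then 5 each way for stages without the last condition; mitochondrial and ribosomal protein genes were left out. No doublet caller was run, and barcodes with at least 5 UMIs of the macrophage, endothelial, glial or epithelial marker list were left out as an alternative. Motifs were searched in RefSeq promoters (GRCm38.p6). Python 3.11.15, numpy 2.4.6, scipy 1.17.1, pandas 2.3.3 and matplotlib 3.10.9 were used, and the scripts were tested on simulated counts. Results were recomputed under 11 other settings, and 4 more (sarcomere-rich members, the same without the shared P1 barcodes, the deepest barcode left out, barcodes over 20% haemoglobin left out) were added after the data had been seen. Results for some genes of the lists are not reported here.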

Additional observations from a re-analysis of the deposited data

Results flagged for a closer look

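Haemoglobin genes, which mark red blood cells, moved in opposite directions in the 2 jaws. Hba-a1 was at 2179, 72.2, 23.4 and 2159 CPM in the members of the E15.5 maxillary, E15.5 mandibular, P1 maxillary and P1 mandibular library. The log2 ratio of P1 over E15.5 was -6.54 in the maxillary and 4.90 in the mandibular molar for Hba-a1, -6.07 and 4.48 for Hba-a2, -6.15 and 4.0 for Hbb-bs, and -6.01 and 3.95 for Hbb-bt. With 1 library a group the difference between the jaws was not tested. Members with over 20% haemoglobin UMIs numbered 1, 0, 0 and 7.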

How the results depend on the processing

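Each group had 1 library. Stages were compared within each jaw and jaws within each stage, and no paired test was run. Of 160 counts of members or genes under the alternatives, 122 stayed within 1.5 times the main count. Of 1049 list medians 122 changed sign, 107 of them from a reported value under 2-fold and 15 from one of at least 2-fold. Of 1002 ratios of named genes 10 changed sign, 5 of them from a value of at least 2-fold.

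With a contractile minimum of 5 UMIs the members numbered 41 and 87 at E15.5 (maxillary, mandibular). P1 maxillary members numbered 45 with 2000 UMIs per barcode and 29 without the shared P1 barcodes, and P1 mandibular members 117 when sarcomere-rich.

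For P1 against E15.5 in the maxillary molar (271 genes higher, 239 lower), 84 were higher and 753 lower without the shared barcodes, 68 and 544 in sarcomere-rich members without the shared barcodes, and 125 and 29 after thinning to 2000 UMIs. Lower were 411 with a mitochondrial limit of 5%, 410 without doublets, 733 by the mean of per-cell CPM and 373 at a minimum of 20 CPM. In the mandibular molar (669 higher, 344 lower), 338 were higher and 593 lower in sarcomere-rich members, 1461 higher at 20 CPM and 95 lower after thinning.

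For mandibular against maxillary at E15.5 (99 higher, 219 lower), 33 and 176 were higher at a contractile minimum of 5 and 20 UMIs, 32 higher and 19 lower after thinning, 209 and 405 by the per-cell mean, and 287 higher at 20 CPM. At P1 (664 higher, 434 lower), 435 were higher at the minimum of 5 UMIs, 1310 higher and 218 lower without the shared barcodes, 138 higher in sarcomere-rich members, 352 higher and 94 lower in these without the shared barcodes, 1437 higher at 20 CPM and 146 lower after thinning.

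Values of at least 2-fold that changed direction were these (log2). In the maxillary molar, P1 over E15.5 was -0.36 for Adarb2 and -0.68 for Plppr1 after thinning, 0.0106 for Hspa4l without the shared barcodes, and -0.38 as the median of head muscle regulators by the per-cell mean. In the mandibular molar the sarcomere-rich medians were 0.85 for thin filament genes and 0.14 for myogenic transcription factors. For mandibular over maxillary at E15.5 the per-cell medians were 0.12 for thick filament and 0.20 for Z-disc genes. At P1 the sarcomere-rich values were -0.35 for Eya2 and, as medians, 0.14 for thin filament, 0.0071 for calcium handling, 0.21 for energy metabolism and 0.67 for fast fibre genes. Without the shared barcodes the sarcomere-rich values were -0.53 for Eya2 and 0.31 for calcium handling, 0.23 for energy metabolism, 0.31 for dystrophin complex and 0.32 for fast fibre genes. Among values under 2-fold, the sign of Tppp3 and Slc29a1 and of the mandibular stage medians of thick filament, Z-disc, calcium handling, slow fibre and calcium pump micropeptide genes, among others, changed between the sets of cells. The causes were not tested.

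Library, animals and dissection cannot be told apart from stage or jaw. At medians of 1859 to 2368.5 UMIs in the P1 sarcomere-rich members, genes with few UMIs in a library had wide intervals.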

Other observations

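Hox genes, which pattern the body axis behind the jaws, had few UMIs in the members. Summed over 39 Hox genes, the members held 9, 1, 24 and 10 UMIs (15.9, 1.34, 51.0 and 4.37 CPM) in the E15.5 maxillary, E15.5 mandibular, P1 maxillary and P1 mandibular library, against 7.91, 5.31, 4.63 and 4.64 CPM in the other kept barcodes. Both maxillary values were thus above those of the other kept barcodes, and both mandibular values below. The P1 maxillary sarcomere-rich members held 63.3 CPM. Of the P1 maxillary UMIs 18 were from Hoxd8.

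Fst, the activin-binding protein follistatin, was at 115, 1.91, 151 and 8.11 CPM in the sarcomere-rich members, so that both maxillary libraries stood above both mandibular ones. Within the E15.5 libraries, members with 1% to 5% sarcomere UMIs held Myog at 2753 and 2651 CPM and Acta1 at 538 and 632 CPM, while those with at least 5% held Myog at 1843 and 1586 CPM and Acta1 at 6612 and 5970 CPM, in the maxillary and the mandibular library. Acta1 is 1 of the genes that the members were selected on. It also moves with the sarcomere genes that set these ranges, so its difference between them was built into the split. The ranges differed in depth too, with medians of 17952 and 19671 UMIs at 1% to 5% and of 14931 and 1458 UMIs at 5% or more. An order of these ranges in time was not tested.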
